A study of Mus musculus with 28 samples.

Results

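Ventral progenitor identity in the neural tube is set by a small group of transcription factor genes, and 6 of them are described here across 11 groups of mouse cells: Nkx6-1, Nkx6-2, Nkx2-2, Dbx1, Dbx2 and Foxa2. They were taken as the 6 named rows out of the 28244 genes of the count table, in all 28 samples. The set was chosen because Nkx6-1 was switched on in the neural stem cells derived from tail in comparison with brain neural stem cells (Tail-pNSC against Brain-NSC). The level of Nkx6-1 in Tail-pNSC is therefore given as a description with no test, as is that whole comparison.

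In the embryonic neural tube, Sonic hedgehog from the notochord and floor plate forms a gradient along the dorsoventral axis. Homeobox genes of the Nkx class are induced by it, those of the Dbx class mark more intermediate progenitors, and pairs of factors from neighbouring domains repress each other. Foxa2, a forkhead factor, marks the floor plate, Nkx2-2 the progenitors next to it, Nkx6-1 and Nkx6-2 the wider ventral domain that gives rise to motor neurons and ventral interneurons, and Dbx1 and Dbx2 the progenitors of intermediate interneurons. Nkx6-1 and Dbx2 are a classical mutually repressing pair, as are Nkx2-2 and Pax6.

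The study derived peripheral neural stem cells (pNSCs) from tissues outside the central nervous system and set them beside brain NSCs and the tissues of origin. RNA was measured by polyA-selected RNA-seq. A first experiment held Tail-pNSC, Lung-pNSC, Brain-NSC, Tail and Lung (n = 2 each). The labels give no reporter for these 5 groups, and the study's methods describe tail and lung pNSCs grown from GFP+ cells of Nes-GFP mice, with tail taken at around postnatal days 1 to 5 and lung at around 4 to 6 weeks of age. A second experiment held Sox2-GFP lung pNSCs and Sox2-GFP brain NSCs (n = 3 each) from mice with GFP driven by Sox2, a neural stem cell gene, and these were compared with the same Lung samples. A further experiment held Wnt1Cre-mTmG Tail pNSCs, Wnt1Cre-mTmG DRG pNSCs, Wnt1Cre-mTmG brain NSCs and DRG NCSCs (n = 3 each), where DRG is the dorsal root ganglion and NCSCs are neural crest stem cells. The study describes the Wnt1Cre-mTmG tail and DRG tissue and the Sox2-GFP lung as postnatal. Its methods take brain NSCs from adult or postnatal mice, and the age behind each brain NSC group is uncertain here. The study describes DRG NCSCs used for staining as coming from adult wild-type mice, and the protocols give DRG cells as postnatal, so the age behind the sequenced NCSCs is uncertain. Wnt1-Cre recombines the mTmG reporter in neural crest and its descendants, which then carry GFP, and the pNSCs were Tomato+ and GFP-. The strain label reads C57BL/6 for all samples, whereas the methods give the wild-type background as CD1 or a mixture of CD1 and C3H, to which the transgenic mice were bred. All pNSCs and brain NSCs were grown in the same medium with EGF and bFGF. A pNSC culture was picked by hand as a cluster, usually clonal, so a group may stand for 1 clone, while brain NSCs came from whole brain. The study calls the samples biological replicates, but nothing states that they were separate animals or cultures, so p-values measure only the spread between these samples.

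The 28 libraries held 9808246 to 22637031 counts, and the 6 libraries of Wnt1Cre-mTmG brain NSCs and DRG pNSCs were the shallowest, at 9808246 to 11431445. Replicate 3 of DRG NCSCs stood apart from its group, with a chi-square per gene of 16.8 and 21.0 against the other two, where other replicate pairs had 1.09 to 2.82. The NSC markers Sox1, Sox2, Nes, Olig2, Pax6 and Fabp7 summed to 4316 to 6361 cpm (counts scaled to library size by TMM) in pNSC and brain NSC libraries, to 86.4 to 89.3 in Tail and to 285 to 308 in Lung. DRG NCSCs carried the neural crest and Schwann list (Sox10, Ngfr, Foxd3, Tfap2a and Erbb3) at 3159 to 3515 cpm, against 10.8 to 11.8 in Wnt1Cre-mTmG Tail pNSCs and 1.86 to 2.49 in Wnt1Cre-mTmG DRG pNSCs.

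The 6 genes lay on the minus strand of GRCm38 (GENCODE vM21). Nkx6-1 spanned chr5:101658139-101664996, Nkx6-2 chr7:139579376-139582797, Nkx2-2 chr2:147177546-147194243, Dbx1 chr7:49631499-49636849, Dbx2 chr15:95623563-95655960 and Foxa2 chr2:148042877-148046969. A gene on the opposite strand, Inpp5a, overlapped Nkx6-2 by 277 bases, and Nkx2-2os and 6430503K07Rik overlapped Nkx2-2. The library kit did not mark strand, so reads within those overlaps cannot be told apart. The group means of the 2 genes opposite Nkx2-2 stayed at or under 1.25 and 0.687 cpm.

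Because Dbx1 and Dbx2 are paralogues whose levels differed widely here, the homeobox of each is shown from its GENCODE vM21 transcript, 180 bases from 5′ to 3′. Capitals mark the bases that differ from the paralogue printed beside it.
Dbx1: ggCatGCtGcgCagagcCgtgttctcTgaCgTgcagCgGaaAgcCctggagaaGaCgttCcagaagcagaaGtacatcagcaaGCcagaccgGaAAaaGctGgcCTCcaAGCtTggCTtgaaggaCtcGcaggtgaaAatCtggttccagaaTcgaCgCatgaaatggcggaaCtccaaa
Dbx2: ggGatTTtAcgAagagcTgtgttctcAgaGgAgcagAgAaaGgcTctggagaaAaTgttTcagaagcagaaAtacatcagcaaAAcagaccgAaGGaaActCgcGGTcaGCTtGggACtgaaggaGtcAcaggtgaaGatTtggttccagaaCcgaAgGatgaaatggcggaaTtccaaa
The Dbx pair differed at 41 bases of the homeobox and encoded 51 of 60 identical residues. Across whole transcripts the longest run shared by Dbx1 and Dbx2 was 14 bases, and by Nkx6-1 and Nkx6-2, paralogues likewise, it was 17 bases. The read length behind these counts is not given in the sources used here.

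Nkx6-1, which in the ventral neural tube is needed for motor neuron progenitors, was high in both tail-derived cultures and low or absent elsewhere. Tail-pNSC held 72.8 and 74.7 cpm (1256 and 1467 counts), and Wnt1Cre-mTmG Tail pNSCs held 90.1, 92.0 and 92.5 cpm (1823 to 2036 counts). Wnt1Cre-mTmG DRG pNSCs followed at 8.88, 9.41 and 8.33 cpm. These 3 pNSC groups did not overlap with each other in Nkx6-1.

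All other groups were far below. DRG NCSCs held 2.85, 2.19 and 1.23 cpm of Nkx6-1 and Tail held 1.67 and 1.59, and these ranges overlapped. Wnt1Cre-mTmG brain NSCs had 0.713, 0.482 and 0.506 cpm (5 to 8 counts) and Sox2-GFP brain NSCs 0.292, 0.653 and 0.464 cpm (5 to 15 counts), again overlapping. Lung had 5 and 1 counts. No count was seen in Brain-NSC, Lung-pNSC or Sox2-GFP lung pNSCs, so brain NSCs of the 3 experiments differed in whether Nkx6-1 was detected at all.

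Nkx6-2, the paralogue that acts alongside Nkx6-1 in ventral progenitors and later in oligodendrocytes, did not follow it. Its highest group was Sox2-GFP brain NSCs, with 5.78, 4.75 and 5.51 cpm (95 to 109 counts). Wnt1Cre-mTmG Tail pNSCs had 3.23, 4.28 and 2.99 cpm and overlapped with Wnt1Cre-mTmG DRG pNSCs at 2.28, 1.96 and 3.06. Sox2-GFP lung pNSCs, Wnt1Cre-mTmG brain NSCs and Tail-pNSC formed an overlapping run at group means of 1.30 ± 0.11 (SD, n = 3), 1.29 ± 0.11 (n = 3) and 1.21 ± 0.23 cpm (n = 2). Below it lay Lung-pNSC at 0.995 and 1.01 cpm, Lung at 0.531 and 0.732, and DRG NCSCs at 0.560, 0.333 and 0.588. Tail had 2 and 1 counts and Brain-NSC had none.

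**Figure D1:**
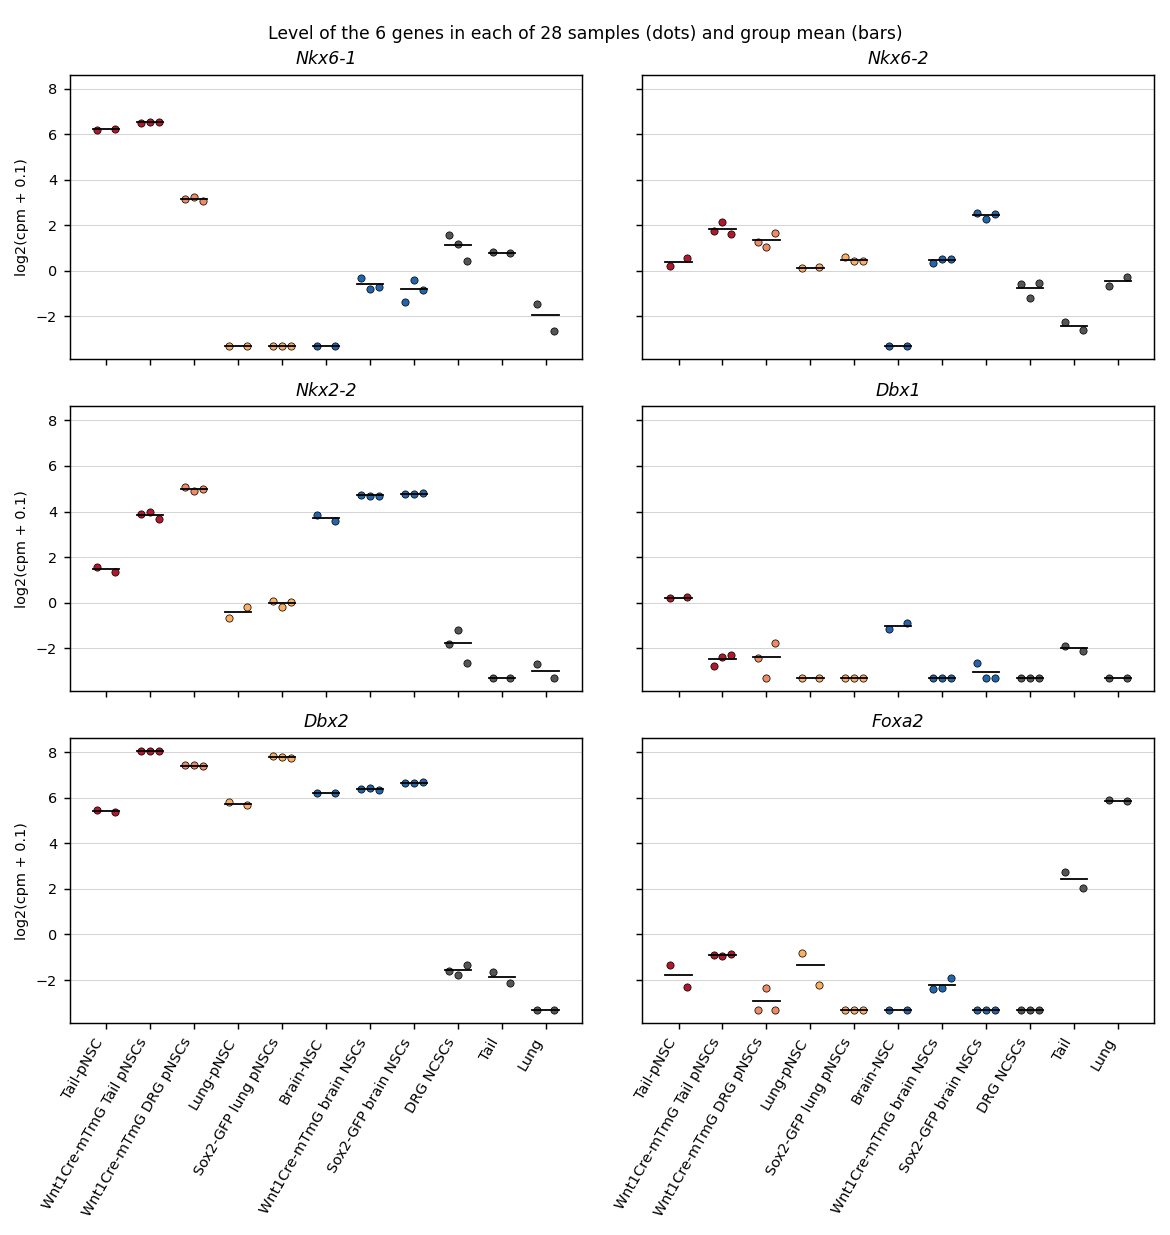
Level of each of the 6 genes as log2(cpm + 0.1) in each of the 28 samples (dots) with the group mean (black bars), for the 11 groups on the x axis. Nkx6-1 is highest in the 5 samples of the tail-derived pNSC groups, Dbx2 is high in every pNSC and brain NSC sample, and Foxa2 is highest in Lung.

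Nkx2-2, which marks the most ventral neural progenitors and is also used in oligodendrocyte precursors, was present in every pNSC and brain NSC group and almost absent from the tissues. Wnt1Cre-mTmG DRG pNSCs held 33.4, 30.1 and 31.9 cpm, Sox2-GFP brain NSCs 27.3, 27.0 and 27.8, and Wnt1Cre-mTmG brain NSCs 26.7, 25.5 and 25.8. Wnt1Cre-mTmG Tail pNSCs held 14.9, 15.5 and 12.5 cpm and Brain-NSC 14.1 and 11.99, which overlapped. Tail-pNSC fell lower still, at 2.84 and 2.44 cpm.

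The lung cultures were the lowest of the NSC-type groups for Nkx2-2, with 0.521 and 0.785 cpm in Lung-pNSC and 0.951, 0.784 and 0.923 in Sox2-GFP lung pNSCs. DRG NCSCs had 4, 7 and 1 counts, Lung 1 and 0, and Tail none. The order of the groups in Nkx2-2 differed from that in Nkx6-1, with DRG pNSCs above tail pNSCs.

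Dbx2 was high in every pNSC and brain NSC group. Wnt1Cre-mTmG Tail pNSCs held 262, 264 and 263 cpm, Sox2-GFP lung pNSCs 225, 220 and 217, and Wnt1Cre-mTmG DRG pNSCs 171, 172 and 168. The 3 brain NSC groups came next, at 101 ± 2.9 cpm in Sox2-GFP brain NSCs (SD, n = 3), 84.2 ± 2.6 in Wnt1Cre-mTmG brain NSCs (n = 3) and 74.1 ± 0.75 in Brain-NSC (n = 2). Lung-pNSC at 55.8 and 50.9 cpm and Tail-pNSC at 44.7 and 41.4 cpm were the lowest of the NSC-type groups. No neighbouring groups overlapped from the top of this order down to Tail-pNSC.

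In contrast, Dbx2 counts were 4 and 2 in Tail, 0 and 0 in Lung, and 5, 4 and 5 in DRG NCSCs. The pNSC groups therefore stood on both sides of the brain NSCs in Dbx2. The tail cultures were at the opposite ends of the NSC-type order, with Wnt1Cre-mTmG Tail pNSCs highest and Tail-pNSC lowest.

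Dbx1, which marks the progenitors of V0 interneurons, was close to the limit of detection. Tail-pNSC held 18 and 21 counts (1.04 and 1.07 cpm) and Brain-NSC 7 and 9 counts (0.351 and 0.435 cpm). The other 24 libraries, in 9 groups, held 3 counts or fewer each. A count of 3 was taken as the limit that a 0 allows, which was 0.163 cpm on average in Tail-pNSC, and such limits cover counting error only.

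Foxa2 belonged to the tissues. Lung held 59.9 and 57.6 cpm (1128 and 944 counts) and Tail 6.64 and 4.02 cpm (119 and 63 counts). Foxa2 is also a factor of lung epithelium, and the epithelial list (Epcam, Cdh1, Nkx2-1, Sftpc, Sftpb, Scgb1a1, Ager and Krt18) summed to 30209 to 30842 cpm in Lung. In bulk samples, fewer cells of a type and less RNA per cell cannot be told apart. Among the cultures, Wnt1Cre-mTmG Tail pNSCs held 9 to 10 counts of Foxa2, Lung-pNSC 10 and 2, Tail-pNSC 5 and 2, and the remaining 6 groups 0 to 2 in each library.

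Compared per kilobase of exon, the scale on which levels of different genes can be set side by side, Dbx2 reached 75.9 cpm per kb in Wnt1Cre-mTmG Tail pNSCs and Nkx6-1 29.2. Foxa2 reached 24.8 cpm per kb in Lung, and Nkx6-1 23.5 in Tail-pNSC. Nkx2-2 reached 11.1 in Wnt1Cre-mTmG DRG pNSCs, whereas Nkx6-2 did not exceed 2.80 and Dbx1 did not exceed 0.505 in any group.

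The first comparison, that of Tail-pNSC with Brain-NSC, asks how tail pNSCs of the first experiment differ from brain NSCs. It chose the genes and is given with no test. Nkx6-1 was at least 499-fold higher in Tail-pNSC, since Brain-NSC had no counts. Nkx6-2 was at least 8.18-fold higher by the same reasoning and Dbx1 2.69-fold higher. Nkx2-2 was 4.94-fold lower and Dbx2 1.72-fold lower. Foxa2, at 5 and 2 counts against none, averaged 1.32-fold over a limit of 3 counts in Brain-NSC. The sample with 2 counts lay under that limit, so no bound is given. In this comparison 10.9% of all genes tested passed the call rule used throughout, an adjusted p under 0.05 in edgeR's quasi-likelihood test with a fold change of at least 1 on the log2 scale.

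Wnt1Cre-mTmG Tail pNSCs were then compared with Wnt1Cre-mTmG brain NSCs, which are samples outside the first comparison. The genes were chosen with earlier results of these data known, so Nkx6-1 may not be independent of the choice here. Nkx6-1, Nkx6-2 and Dbx2 were called higher, which is 3 of the 4 genes that could be tested, where 18.2% of all genes were called. Nkx6-1 was 161-fold higher (91.5 ± 1.3 against 0.567 ± 0.13 cpm, SD, n = 3 each), with a log2 fold change of 7.30 (SE 0.16, adjusted p = 1.94e-16). Dbx2 was 3.13-fold higher (263 ± 1.0 against 84.2 ± 2.6 cpm, log2 fold change 1.63, SE 0.037, adjusted p = 2.63e-16). Both genes of the repressing pair were thus higher in the same cultures, although bulk RNA does not show whether the same cells held both. In Tail-pNSC against Brain-NSC, Nkx6-1 was at least 499-fold higher and Dbx2 1.72-fold lower. Nkx6-2 was 2.72-fold higher (log2 fold change 1.43, SE 0.24, adjusted p = 4.97e-05), and its ranges did not overlap.

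Nkx2-2 was 1.81-fold lower in Wnt1Cre-mTmG Tail pNSCs than in Wnt1Cre-mTmG brain NSCs (log2 fold change -0.87, SE 0.093, adjusted p = 2.78e-07), which did not reach the fold limit. Dbx1 and Foxa2 were below the filter on low counts in this experiment. Mesenchymal genes moved with the comparison. Col1a1, Col1a2, Col3a1, Pdgfrb, Dcn and Lum, 6 of 6 called higher, summed to 384 to 397 cpm in Wnt1Cre-mTmG Tail pNSCs and 10.6 to 12.7 in Wnt1Cre-mTmG brain NSCs. Their part in the result was not tested. In Tail, where that list summed to 72211 to 73653 cpm, Nkx6-1 was 1.59 to 1.67 cpm. In Tail-pNSC the list was at 2.14 to 2.90 cpm and Nkx6-1 at 72.8 and 74.7. Of the other marker lists, 2 of 6 NSC genes tested were called higher and none lower, 1 of 4 neural crest and Schwann genes higher and 2 lower, 2 of 5 neuronal genes higher and 1 lower, 1 of 3 endothelial and leukocyte genes higher and 2 lower, and 1 of 2 lung epithelial genes lower.

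The same brain NSCs served as the control for Wnt1Cre-mTmG DRG pNSCs, in which Nkx6-1 and Dbx2 were called higher, 2 of 4 genes tested against 9.53% of all genes. Nkx6-1 was 15.6-fold higher (log2 fold change 3.95, SE 0.26, adjusted p = 1.29e-09). Dbx2 was 2.02-fold higher, with a log2 fold change of 1.02 (SE 0.038, adjusted p = 7.90e-13) that sat at the fold limit. It fell to 0.99 or 1.00 on the log2 scale, and the number called to 1, without a filter on low counts, with a stricter filter, with a fit of the 2 groups alone, and without Wnt1Cre-mTmG brain NSCs replicate 3. Nkx6-2 (log2 fold change 0.92, adjusted p = 0.0130) and Nkx2-2 (0.29, adjusted p = 0.0144) stayed under the limit. Without Wnt1Cre-mTmG DRG pNSCs replicate 2, Nkx6-2 passed it (1.04).

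Set against each other, tail and DRG pNSCs differed in opposite directions for Nkx6-1 and Nkx2-2. Of 4 genes tested, 2 were called, where 18.0% of all genes were. Nkx6-1 was 10.3-fold higher in Wnt1Cre-mTmG Tail pNSCs (log2 fold change 3.35, SE 0.099, adjusted p = 8.75e-15), and Nkx2-2 was 2.22-fold lower (14.3 ± 1.6 against 31.8 ± 1.6 cpm, SD, n = 3 each, log2 fold change -1.16, SE 0.091, adjusted p = 4.57e-09). Dbx2 was 1.55-fold higher and Nkx6-2 1.44-fold higher in the tail cultures, both under the fold limit, and the ranges of Nkx6-2 overlapped.

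**Figure D2:**
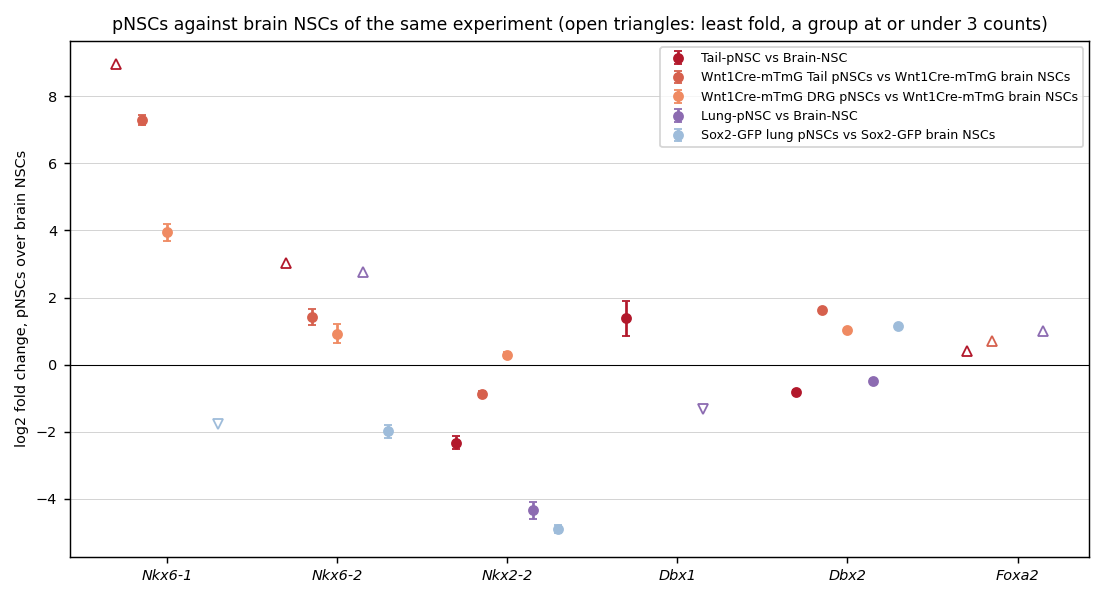
Log2 fold change of each of the 6 genes in pNSCs over brain NSCs of the same experiment, for 5 comparisons (colours), with bars showing the standard error. Open triangles give the fold against 3 counts where a group is at or under 3 counts. Nkx6-1 rises by 7.30 and 3.95 in Wnt1Cre-mTmG Tail and DRG pNSCs, while Dbx2 lies on both sides of 0.

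DRG NCSCs, the neural crest stem cells of the same ganglion, were compared to ask whether pNSCs resemble crest cells. Against Wnt1Cre-mTmG brain NSCs 4 of 4 genes tested were called, where 36.9% of all genes were. Nkx2-2 was 135-fold lower (log2 fold change -6.96, SE 0.20, adjusted p = 7.96e-16) and Dbx2 352-fold lower (log2 fold change -8.44, SE 0.092, adjusted p = 2.36e-21). Nkx6-2 was 2.60-fold lower, and Nkx6-1 was 3.69-fold higher (log2 fold change 1.90, SE 0.33, adjusted p = 4.37e-05). Without replicate 3 of DRG NCSCs these 4 values were -6.61, -8.58, -1.51 and 2.13 on the log2 scale, and the number called was again 4.

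Relative to DRG NCSCs, 4 of 4 genes were called higher in Wnt1Cre-mTmG Tail pNSCs, where 37.9% of all genes were called, and likewise 4 of 4 in Wnt1Cre-mTmG DRG pNSCs, where 38.3% were. The log2 fold changes in tail pNSCs were 5.40 for Nkx6-1, 2.81 for Nkx6-2, 6.09 for Nkx2-2 and 10.07 for Dbx2. Those in DRG pNSCs were 2.05, 2.30, 7.25 and 9.45 in the same order. Both comparisons share the NCSC samples. Leaving out replicate 3 of DRG NCSCs gave 5.16, 2.94, 5.74 and 10.21 in tail pNSCs and 1.81, 2.43, 6.90 and 9.60 in DRG pNSCs.

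Lung pNSCs lacked Nkx6-1 in both experiments. Lung-pNSC against Brain-NSC had 4 of 5 genes tested called, against 8.71% of all genes. Nkx2-2 was 19.98-fold lower (0.653 ± 0.19 against 13.0 ± 1.5 cpm, SD, n = 2 each, log2 fold change -4.35, SE 0.25, adjusted p = 7.03e-68). Nkx6-2, at 21 and 18 counts against none, was at least 6.78-fold higher (adjusted p = 1.30e-08), and Dbx1, at none against 7 and 9 counts, was at least 2.53-fold lower (adjusted p = 5.55e-04). Foxa2, at 10 and 2 counts against none, was called higher (adjusted p = 6.26e-04). It averaged 1.98-fold over a limit of 3 counts in Brain-NSC, but the sample with 2 counts lay under that limit. The call rested on Lung-pNSC replicate 1 and was lost without it. Dbx1 and Foxa2 passed the filter on low counts only through groups outside this comparison, and with only Lung-pNSC and Brain-NSC in the fit neither was tested and 2 genes were called. Dbx2 was 1.39-fold lower and under the fold limit.

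In the second experiment 3 of 3 genes tested were called in Sox2-GFP lung pNSCs against Sox2-GFP brain NSCs, where 15.7% of all genes were. Nkx2-2 was 30.9-fold lower (0.886 ± 0.089 against 27.3 ± 0.42 cpm, SD, n = 3 each, log2 fold change -4.91, SE 0.13). Nkx6-2 was 4.11-fold lower (log2 fold change -1.997, SE 0.18, adjusted p = 4.53e-27), and Dbx2 was 2.18-fold higher (log2 fold change 1.15, SE 0.027). The adjusted p for Nkx2-2 and Dbx2 was too small for the software to hold. Nkx6-1, at 0 counts in every library against 5 to 15, was at least 3.41-fold lower but below the filter, so it has no test.

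Whether the lung pNSC effect differed between these 2 experiments was tested directly, as the difference of the differences. Of 3 genes that could be tested 2 were called, where 14.1% of all genes were. Dbx2 differed by 1.64 on the log2 scale (SE 0.060, adjusted p = 8.67e-23), being lower than in brain NSCs in the first experiment and higher in the second. Nkx6-2 differed by -9.16 (SE 0.86, adjusted p = 2.00e-11), a fitted value that rests on the absence of counts in Brain-NSC and is no bound. Its level in the 2 lung cultures was close, 1.00 ± 0.010 and 1.30 ± 0.11 cpm, whereas the brain NSCs held none and 5.34 ± 0.53. Nkx2-2 differed by -0.57 (SE 0.37, adjusted p = 0.223). The experiments also differ in reporter and in the age of the lung, adult in the first and postnatal in the second by the methods, which cannot be told apart.

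Tail-pNSC and Lung-pNSC of the first experiment were also compared, with Nkx6-1 at least 475-fold higher in Tail-pNSC as a description. Of the other 5 genes, 2 were called, both higher in Tail-pNSC, where 12.9% of all genes were called. Nkx2-2 was 4.05-fold higher (log2 fold change 2.02, SE 0.34, adjusted p = 1.16e-08), and Dbx1, at 18 and 21 counts against none, at least 6.81-fold higher (adjusted p = 1.00e-08). Dbx1 passed the filter in the first experiment only through Tail-pNSC, the group where it is high, so its calls for Tail-pNSC over Lung-pNSC and over Tail support nothing beyond the counts themselves. Dbx2 was 1.24-fold lower and under the fold limit. Nkx6-2 (log2 fold change 0.28, adjusted p = 0.634) and Foxa2 (-0.68, adjusted p = 0.457) did not pass, and Foxa2 turned to 0.72 (adjusted p = 0.678) without Lung-pNSC replicate 1.

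Against the tissue of origin, the shift was broad. In Tail-pNSC against Tail, 5 of the 5 genes tested were called, where 46.7% of all genes were. Dbx1 is among these 5, and it passed the filter only through Tail-pNSC, so its call adds nothing to its counts. Dbx2 was 246-fold higher (log2 fold change 7.76, SE 0.21), Nkx2-2 at least 14.7-fold, Nkx6-2 at least 6.74-fold and Dbx1 at least 5.89-fold higher, and Foxa2 was 27.2-fold lower (log2 fold change -4.89, SE 0.36, adjusted p = 1.23e-41). Tail held 2 and 1 counts of Nkx6-2 and 3 and 2 of Dbx1, so the folds of these genes are set against 3 counts and are no strict bounds. Nkx6-1 was 45.1-fold higher, as a description.

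Lung-pNSC against Lung had 4 of 5 genes called, where 55.0% of all genes were, and Sox2-GFP lung pNSCs against the same Lung samples had 4 of 4, where 56.3% were. Lung belonged to the first experiment. By the methods, lung was adult there and postnatal for the Sox2-GFP cultures, so Lung is not matched to those cultures in experiment or age. Dbx2 was at least 312-fold higher in Lung-pNSC and at least 1291-fold higher in Sox2-GFP lung pNSCs, and Nkx2-2 at least 3.81-fold and at least 5.18-fold higher. Foxa2 was 201-fold lower in Lung-pNSC and at least 427-fold lower in Sox2-GFP lung pNSCs. In the Sox2-GFP comparison Foxa2 passed the filter only through Lung, the group where it is high. Its part in the 4 of 4 therefore supports nothing beyond the counts themselves. Nkx6-1 was called lower in Lung-pNSC on 5 and 1 counts in Lung, a call lost without Lung replicate 1 (adjusted p = 0.165). With only Lung-pNSC and Lung in the fit, Nkx6-1 and Nkx2-2 were below the filter and 2 genes were called. Nkx6-2 was 2.06-fold higher in Sox2-GFP lung pNSCs (log2 fold change 1.01, SE 0.35, adjusted p = 0.00472), at the fold limit, and lost its call without Lung replicate 1 (0.78, adjusted p = 0.0852) and without Sox2-GFP lung pNSCs replicate 1 (0.94), and also with DESeq2 (0.93) and with a prior count of 2 (0.91). It did not pass in Lung-pNSC (log2 fold change 0.60, adjusted p = 0.233).

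The partners of the 6 genes were then described in Wnt1Cre-mTmG Tail pNSCs against Wnt1Cre-mTmG brain NSCs, beside a median log2 fold change of 0.0039 over all 14448 genes tested. In this comparison 18.2% of all genes were called, the share beside which each list count is to be read. Of 14 ventral progenitor partners, 10 were tested, 3 were higher and 4 lower, with a median of -0.57. Sulf1, a heparan sulfatase of the floor plate that shapes Hedgehog signalling, was 34.9 cpm in brain NSCs and 5.34 in tail pNSCs (log2 fold change -2.72), and Lmx1b, a LIM homeobox gene, 1.14 and 0.139 (log2 fold change -2.96). Irx5, an Iroquois homeobox gene, fell from 10.1 ± 1.2 to 1.79 ± 0.48 cpm (SD, n = 3 each, log2 fold change -2.50, SE 0.17, adjusted p = 5.79e-10).

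Olig2, the motor neuron and oligodendrocyte progenitor factor, was at group means of 894 to 1371 cpm in every pNSC and brain NSC group, 15.01 in DRG NCSCs, 0.0877 in Tail and 0 in Lung. Lung-pNSC and Brain-NSC, which had no Nkx6-1 counts, were among the groups with high Olig2. Pax6, the partner of Nkx2-2, was called higher in Wnt1Cre-mTmG Tail pNSCs, at 69.8 ± 1.3 against 33.3 ± 3.0 cpm (SD, n = 3 each, log2 fold change 1.05, adjusted p = 3.24e-10), while Nkx2-2 was lower.

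Of 12 Hedgehog pathway genes, all tested, 6 were higher, none lower and 6 not called, with a median of 0.76. Boc, a co-receptor, was 70.2 ± 3.0 against 12.9 ± 0.80 cpm (SD, n = 3 each, log2 fold change 2.43, adjusted p = 1.50e-15), and Hhip, a target gene that binds the ligand, 14.8 ± 0.85 against 3.85 ± 0.56 (log2 fold change 1.94, adjusted p = 3.82e-10). Gli1, the transcriptional effector and target, had 26 to 32 counts against 0 to 1, at least 5.06-fold higher (adjusted p = 2.71e-06).

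Ptch1, the receptor and target, Shh, the ligand, Gli2, a transcriptional effector, and Olig2 and Pax6 above lay outside the rule for naming genes and were picked after their values were seen. Ptch1 was 376 ± 5.8 against 162 ± 4.1 cpm (SD, n = 3 each, log2 fold change 1.20, adjusted p = 2.38e-13). Shh itself was low, with 13 to 27 counts in Wnt1Cre-mTmG Tail pNSCs, 4 to 7 in brain NSCs and 0 to 1 in DRG pNSCs, and did not reach the fold limit between tail pNSCs and brain NSCs (log2 fold change 0.97, adjusted p = 0.0361). In Wnt1Cre-mTmG DRG pNSCs, where Nkx6-1 was also raised, 0 of 11 Hedgehog genes tested were called higher and 1, Gli2, lower. Of all genes 9.53% were called there, and the list median was 0.14 beside 0.013 over all genes. In lung pNSCs, where Nkx6-1 was absent, 1 of 12 was higher in Lung-pNSC (median 0.47), where 8.71% of all genes were called. In Sox2-GFP lung pNSCs 3 were higher and 2 lower (median 0.22), where 15.7% of all genes were called. Any link between these genes and Nkx6-1 was not tested.

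**Figure D3:**
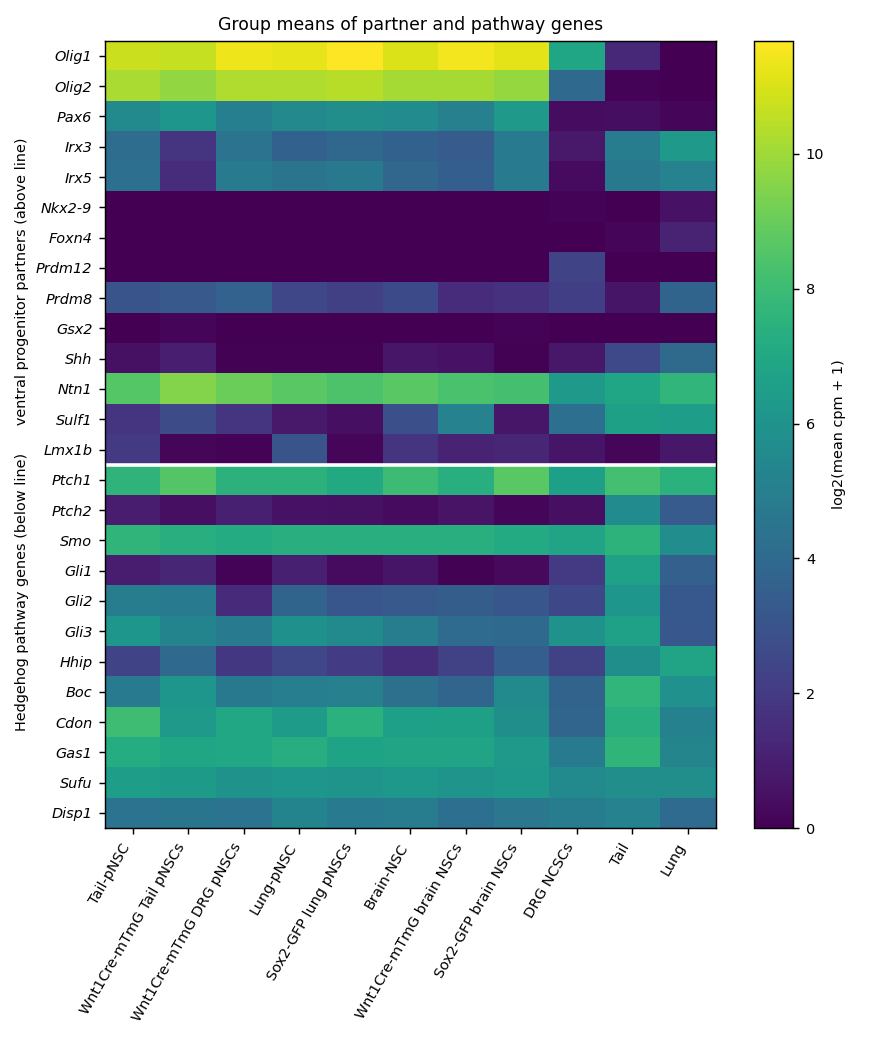
Group means as log2(mean cpm + 1) of 14 ventral progenitor partners (above the white line) and 12 Hedgehog pathway genes (below it) in the 11 groups on the x axis, with lighter colours for higher levels. Olig1 and Olig2 are bright in all pNSC and brain NSC groups, and Ptch1 is present in every group.

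Of 14 dorsal progenitor genes 3 were tested, none higher and 2 lower (median -2.59). These were Gsx1, at 7.18 cpm in brain NSCs and 0.235 in Wnt1Cre-mTmG Tail pNSCs (log2 fold change -4.90), and Zic1, at 4.70 and 0.791 (log2 fold change -2.59). Of 13 ventral neuron genes 6 were tested, 5 higher and 1 lower, with a median of 2.57, or 2.03 with genes near 0 at their bounds. Levels were low. Isl1, a motor neuron factor, had 17 to 25 counts against none, at least 3.85-fold higher, Gata3, a V2b interneuron factor, was at least 7.24-fold higher, and Isl2 at least 6.22-fold lower. Mnx1, Chat, Slc18a3, Evx1 and Evx2 held 3 counts or fewer in all 28 libraries.

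Other members of the Nkx and Foxa families did not share the pattern of Nkx6-1. Of 12, 4 were tested and 4 were lower in Wnt1Cre-mTmG Tail pNSCs, with a median of -7.46, or -3.28 at the bounds. Foxa1 was at least 26.8-fold lower and Nkx2-1, the forebrain and lung factor, at least 5.69-fold lower, both with no counts in tail pNSCs. Within this experiment Foxa1, Nkx2-1 and Nkx2-4 passed the filter only through Wnt1Cre-mTmG brain NSCs, the group where they were high. Their part in the 4 of 4 therefore adds nothing beyond the counts themselves. Nkx1-1, Nkx1-2, Nkx2-3 and Nkx2-6 held 3 counts or fewer in all 28 libraries.

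Nkx6-1 and Nkx2-2 are also known from oligodendrocytes and pancreatic islets, so these lists were read too. Of 12 oligodendrocyte lineage genes 9 were tested, none higher and 3 lower (median -0.82), with Gpr17 at 11.1 against 41.8 cpm (log2 fold change -1.93) and Sox10 at 7.27 against 14.4 (-1.01). Of 9 islet genes 1 was tested, Neurod1, which was higher at 2.57 against 0.684 cpm (log2 fold change 1.88). Pdx1, Neurog3, Ins1, Ins2 and Pax4 held 3 counts or fewer in all 28 libraries.

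The nearest protein-coding neighbours of the 6 genes on the chromosome were also compared in Wnt1Cre-mTmG Tail pNSCs against Wnt1Cre-mTmG brain NSCs, and Nkx2-4 and Gpat3 were called. Nkx2-4, 92.1 kb from Nkx2-2, had no counts in tail pNSCs and 21 to 32 in brain NSCs, at least 16.6-fold lower (adjusted p = 5.80e-07). Of the groups in this fit only brain NSCs held counts of Nkx2-4, so it passed the filter through them alone and its call adds nothing to its counts. Gpat3, 759 kb from Nkx6-1, was called higher at a low level (1.05 against 0.337 cpm, log2 fold change 1.63), and Cds1, 100 kb away on the other side, was not called (0.33). Nell2 and Ano6, beside Dbx2, were not called (-0.77 and 0.80), nor were Nav2 and Htatip2, beside Dbx1 (0.19 and -0.19). Inpp5a, which overlaps Nkx6-2, and Cfap46 on its other side were not called (0.66 and -0.75). Pax1, between Nkx2-2 and Foxa2, and Sstr4, beside Foxa2, were below the filter.

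The genes most like each member in level were sought over the 11 group means of log2(cpm + 1), among 14437 genes reaching 5 cpm in a group. The points share libraries and scaling, so the correlations are descriptions. Nkx6-1 was nearest to Polr2c (Pearson r = 0.93), Ttc17 (0.90), Cul1 (0.89), Hoxd3os1 and Max (both 0.88). Dbx2 was nearest to Mir9-3hg, the host of a neural microRNA (0.99), and Dlst, Hrh1 and Magi2 were also among its 5 nearest genes (0.98, 0.98 and 0.97). Nkx2-2 was nearest to Poc5 (0.96) and Slc39a12 (0.93), Nkx6-2 to Gosr2 (0.89), Dbx1 to Cdc40 (0.87) and Foxa2 to Nfe2 (1.00). The names depend on the measure. With Spearman's rho in place of Pearson's r, 0 of the 5 nearest genes were shared for Nkx6-1, Nkx2-2, Dbx1 and Foxa2 and 1 of 5 for Nkx6-2 and Dbx2, and Polr2c had a rho of 0.64 with Nkx6-1.

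Among the members, Nkx2-2 and Dbx2 had r = 0.72, Nkx6-1 and Nkx6-2 0.37, and Nkx6-1 and Dbx2 0.24. Many genes had a higher r. Among 14437 genes, Dbx2 ranked 360 for Nkx2-2 and Nkx2-2 ranked 2533 for Dbx2. Nkx6-2 ranked 1795 for Nkx6-1 and Nkx6-1 ranked 3142 for Nkx6-2. The genes nearest Nkx6-1 had smaller ranges than Nkx6-1 itself, with Polr2c, a subunit of RNA polymerase II, between 27.0 and 40.4 cpm over the 11 groups. Hoxd3os1, a transcript antisense to HoxD genes, was 0 in the 3 brain NSC groups, 5.32 cpm in Tail-pNSC, 6.73 in Wnt1Cre-mTmG Tail pNSCs, 3.80 in Wnt1Cre-mTmG DRG pNSCs and 4.07 in Tail, and without strand its reads cannot be told from those of the genes it overlaps.

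**Figure D4:**
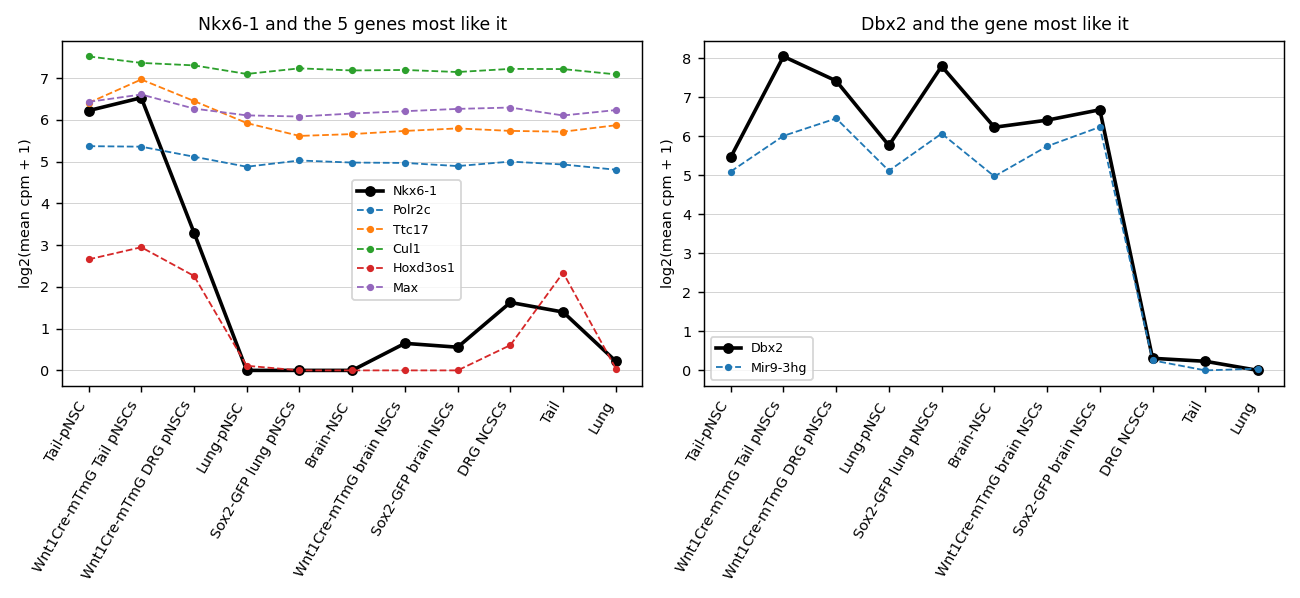
Group means as log2(mean cpm + 1) over the 11 groups on the x axis, of Nkx6-1 with the 5 genes most like it (left, Nkx6-1 black, the others dashed) and of Dbx2 with the gene most like it (right, Dbx2 black, Mir9-3hg dashed). Mir9-3hg follows Dbx2 down in Tail, Lung and DRG NCSCs, with r of 0.99.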

How the data were processed

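RNA-seq libraries were polyA-selected and sequenced single-end by the authors, who aligned reads to GRCm38 with HISAT2, annotated them with Cufflinks and counted reads per gene with HTSeq. The deposited values are raw counts for 28244 genes in 28 samples, and were checked to be whole numbers. The strand and overlap settings of the counting and the annotation release are not given in the sources used here.

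From these counts, levels were computed as TMM-scaled cpm over all 28 samples, and per kilobase of the union of exons where genes were compared with each other. Groups were compared with edgeR 4.0.16 (quasi-likelihood F test, two-sided, Benjamini-Hochberg adjustment over all genes tested, R 4.3.3), in 1 fit per experiment over its groups, after filterByExpr with a minimum count of 10 and a minimum total of 15. The test of the difference between the lung pNSC experiments used all 28 samples. Calls needed an adjusted p under 0.05 and a log2 fold change of 1 or more in either direction. Genes at or under 3 counts in every library of both groups were not tested, and a fold against a group at or under 3 counts in every library was computed against 3 counts per library and written as "at least". Where that group held any counts, or a sample of the other group was at or under 3 counts, such a fold is no strict bound. Simulated counts in which 200 genes were changed served to check the procedure. Alternatives were DESeq2 1.42.0, other scalings, filters, prior counts and samples in the fit, a replicate block, and leaving out each replicate.

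Every one of the 6 genes is named in every group. From each gene list up to 3 called genes with the largest change in Wnt1Cre-mTmG Tail pNSCs against Wnt1Cre-mTmG brain NSCs are named, if a group mean reached 5 cpm. Likeness names up to 5 genes per member. Members and lists were chosen with earlier results of these data known. The homeobox sequences and positions come from GENCODE vM21 on GRCm38. Some list genes, a gene named by likeness and a sequence are not reported here, and the lists were counted without those genes.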

Additional observations from a re-analysis of the deposited data

Results flagged for a closer look

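Values that differed between pNSCs of 2 origins or of 2 experiments are gathered here, without explanation. The effect of lung pNSCs against brain NSCs differed between the Sox2-GFP and the first experiment by -9.16 on the log2 scale for Nkx6-2, where Brain-NSC had no counts, and by 1.64 for Dbx2, both by a test of the difference itself. Wnt1Cre-mTmG Tail pNSCs and Wnt1Cre-mTmG DRG pNSCs, which share their brain NSC control, differed by 3.35 for Nkx6-1 and by -1.16 for Nkx2-2 when compared directly. Tail-pNSC and Lung-pNSC differed by 2.02 for Nkx2-2 and by a fitted 7.26 for Dbx1, with Lung-pNSC at 0 counts of Dbx1. Dbx2 was lower in both Tail-pNSC samples than in both Brain-NSC samples, with a log2 fold change of -0.81, and higher in all 3 Wnt1Cre-mTmG Tail pNSC samples than in all 3 Wnt1Cre-mTmG brain NSC samples, at 1.63. The difference between those last 2 values was not tested.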

How the results depend on the processing

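Dropping the limit on the fold change reused the same fit, could only add calls and gave every gain among the other settings. Under other settings, with it included, 446 log2 fold changes kept their direction and side of the threshold, 7 gained and 5 lost a call. With 1 replicate left out 285 did so, 1 gained and 5 lost a call, and Foxa2 in Tail-pNSC against Lung-pNSC reversed, running from -1.53 without Tail-pNSC replicate 1 to 0.72 without Lung-pNSC replicate 1. The larger moves in the number of members called follow, and smaller ones were counted as the same. Among the smaller ones, the filter at a mean count of 100 removed Nkx6-2 from the Wnt1Cre-mTmG and Sox2-GFP experiments, where several comparisons had called it. In Wnt1Cre-mTmG DRG pNSCs against brain NSCs the number went from 2 to 1 without a filter and with a filter at a mean count of 100. It also went to 1 with only those 2 groups in the fit and without Wnt1Cre-mTmG brain NSCs replicate 3. Without Wnt1Cre-mTmG DRG pNSCs replicate 2, Nkx6-2 was called as well. With no limit on the fold change the number went to 4. In Wnt1Cre-mTmG Tail against DRG pNSCs it went from 2 to 4 with no limit on the fold change. The filter at a mean count of 100, which removes the low genes, gave 1 for Lung-pNSC against Brain-NSC (from 4), 0 for Tail-pNSC against Lung-pNSC (from 2), 2 for Tail-pNSC against Tail (from 5) and 1 for the difference between the lung experiments (from 2). Fitting only the groups compared gave 2 for Lung-pNSC against Brain-NSC and 2 for Lung-pNSC against Lung (from 4 each). In both of these fewer members passed the filter.

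Same-numbered samples did not deviate together (correlations of -0.029 to 0.028 in the Wnt1Cre-mTmG experiment), so the numbers were not taken as pairs. With the replicate block, 3 members were again called in Wnt1Cre-mTmG Tail pNSCs against brain NSCs, with Nkx6-1 at 7.30 (adjusted p = 2.26e-15), and no count of members called changed. Levels of at least 1 cpm moved by factors of 0.908 to 1.12 under 3 other scalings. Depth limits Dbx1 in every group, Foxa2 in the cultures and Nkx6-1 in brain NSCs, which rest on few reads.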
